A study of Mus musculus with 36 samples.

Results

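The sterol and fatty acid synthesis genes were followed in primary embryonic neurosphere-derived enteric glial cells (EGCs), the glia of the intestinal nervous system grown in culture. The members are 32 genes chosen by their known role, and all 32 are among the 43472 genes of the count table. They fall into 7 enzymes of the mevalonate pathway, 11 enzymes that turn its product into cholesterol, 6 sterol regulators and carriers, and 8 genes of fatty acid synthesis, elongation and desaturation. The rule uses role alone, but the list was drawn up with earlier results of these data known.

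Cells build cholesterol from acetyl-CoA, first along the mevalonate pathway to farnesyl diphosphate and then through squalene and lanosterol, and they build saturated fatty acids from the same acetyl-CoA before lengthening and desaturating them. Many of these enzymes are controlled together by the transcription factors SREBP1 and SREBP2, the products of Srebf1 and Srebf2. When membranes hold much sterol, the SREBP precursors are kept in the endoplasmic reticulum by SCAP and the INSIG proteins, and when sterol runs low they are released, cut and sent to the nucleus, where they bind sterol regulatory elements in promoters. In the brain, astrocytes supply neurons with cholesterol.

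All EGCs came from intestines of wild-type C57BL/6J mouse embryos, were expanded as neurospheres and were plated in medium with fetal bovine serum, which itself carries lipids. Unstimulated EGCs were left without conditioned medium. H-CM EGCs received medium in which cells of digested healthy mouse colon had been cultured overnight. TME-CM EGCs received such medium from cells of digested MC38 tumors, which arise from a mouse colon carcinoma line placed in the colon wall. Both media, called supernatants below, thus come from overnight cultures of cells of whole digested tissue, and their lipid content is not analysed here. RNA was taken after 6, 12 or 24 h, which gives 9 groups of 4 libraries and 36 libraries in all. No label says that the 4 libraries of a group came from separate cultures or animals, so the p-values measure the spread between these libraries, which may be technical.

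Library totals ran from 13518 to 5244763 counts at 6 h, from 2005239 to 5961933 at 12 h and from 1608018 to 7552509 at 24 h. The members together received 17 to 7561 counts per library at 6 h, 2763 to 12382 at 12 h and 2854 to 12674 at 24 h. Replicate 4 of H-CM at 6 h stood apart as the library of 13518 counts. One entry of the table, Yam1, took 10.97% to 48.6% of the counts at 6 h and 12.6% to 39.9% later on. At 24 h its share was 35.1% in TME-CM replicate 2, 30.7% in unstimulated replicate 1 and at most 18.5% in every other library. Of the fixed marker lists, all 7 glial markers were detected at 24 h with a summed level of 194 to 267 CPM (the usual scaled count, here on library sizes corrected by TMM) over its 12 libraries, while 6 smooth muscle markers summed to 1644 to 7859 CPM and 5 fibroblast markers to 4399 to 6910 CPM, so the cultures also carried RNA typical of other cell types.

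Each CPM value below is a level on this scale, and each log2 fold change is a difference fitted by edgeR's quasi-likelihood test in a model of the 12 libraries of a time point. A gene is called where its p-value adjusted over all genes tested (Benjamini-Hochberg) is under 0.05. The 3′ mRNA libraries read a transcript from its end, so a gene's count does not scale with its length.

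Promoters were compared first, since the sterol regulatory element is the feature by which SREBPs reach their targets. Of the 32 members, 25 had a promoter window in RefSeq's table for GRCm38.p6, running from 250 bases before to 50 bases after the start of transcription. Among the 7 called in any comparison of TME-CM at 24 h, Hsd17b7 and Srebf2 had one. On both strands, the sterol regulatory element motif TCACNCCAC was found in 1 of the 25 members, Hmgcs1, and in 1.44% of the 27025 genes of the table. The related CACCCCAC was found in 2 members, Hmgcs1 and Acat2, and in 3.3% of all genes, and in Hmgcs1 the matches of these motifs overlap. CCAAT, which NF-Y binds, was found in 20 members and in 41.1% of all genes. The E-box CACGTG was found in 5 members, Hsd17b7, Insig1, Dhcr7, Sc5d and Scap, and in 8.09% of all genes. A match is a description of these letters in this window and not of a bound site. The 250 bases before the start of the called members with a window, and of the single member holding TCACNCCAC, are shown in the direction of transcription, with matches of any of the 4 motifs on either strand in capitals. These promoters were chosen after the values were seen. That of Hsd17b7 (chr1:169969206-169969455, minus strand) holds 3 matches of CCAAT, all read as ATTGG on this strand, and 1 of CACGTG. The listed span of Hsd17b7 reaches chr1:169969242, so the last printed bases, with the last ATTGG, lie within that span. That of Srebf2 (chr15:82147019-82147268, plus strand) holds 1 of CCAAT, and that of Hmgcs1 (chr13:119690101-119690350, plus strand) holds 3 of CCAAT beside its overlapping matches of TCACNCCAC and CACCCCAC.
Hsd17b7: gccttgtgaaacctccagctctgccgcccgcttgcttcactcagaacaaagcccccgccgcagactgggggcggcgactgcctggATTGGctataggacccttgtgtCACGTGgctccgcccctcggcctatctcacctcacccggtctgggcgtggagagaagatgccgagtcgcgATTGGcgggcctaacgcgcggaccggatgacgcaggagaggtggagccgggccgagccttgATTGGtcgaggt
Srebf2: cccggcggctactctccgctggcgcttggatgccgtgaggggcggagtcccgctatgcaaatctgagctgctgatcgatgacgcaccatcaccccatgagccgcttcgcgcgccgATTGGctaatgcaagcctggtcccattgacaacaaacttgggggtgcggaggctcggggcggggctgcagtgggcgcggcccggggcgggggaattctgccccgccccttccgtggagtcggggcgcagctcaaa
Hmgcs1: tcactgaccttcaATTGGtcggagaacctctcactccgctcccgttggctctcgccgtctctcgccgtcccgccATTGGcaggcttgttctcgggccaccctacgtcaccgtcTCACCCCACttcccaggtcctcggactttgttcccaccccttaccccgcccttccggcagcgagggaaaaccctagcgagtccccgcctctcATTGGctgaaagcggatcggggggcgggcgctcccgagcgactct

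The members' mean level was then compared across the 9 groups as a score, the mean of the members' log2 CPM in a library. At 24 h its mean was 5.10 ± 0.059 with TME-CM (SD, n = 4), 4.80 ± 0.033 with H-CM and 4.81 ± 0.054 without stimulation. The TME-CM libraries lay between 5.04 and 5.18, above the highest H-CM library at 4.85 and the highest unstimulated library at 4.88. The difference of TME-CM from H-CM was 0.30 on the log2 scale, beside a replicate SD of 0.048. At 12 h the order was another one, with means of 5.04 ± 0.121 for H-CM, 5.01 ± 0.187 for TME-CM and 4.79 ± 0.038 for unstimulated EGCs. All 4 H-CM libraries of 12 h, at 4.92 to 5.20, lay above the unstimulated ones, at 4.74 to 4.82, while the TME-CM libraries, at 4.75 to 5.19, overlapped with both. At 6 h the scores were 4.42 ± 0.219 in unstimulated EGCs, 3.93 ± 1.65 with H-CM and 4.45 ± 0.514 with TME-CM, and the low mean of H-CM came from replicate 4 at 1.46. The difference of TME-CM from H-CM at 6 h was 0.52, and −0.30 without that library. No p-value is given for the score, since the members were chosen with earlier results of these data known.

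**Figure D1:**
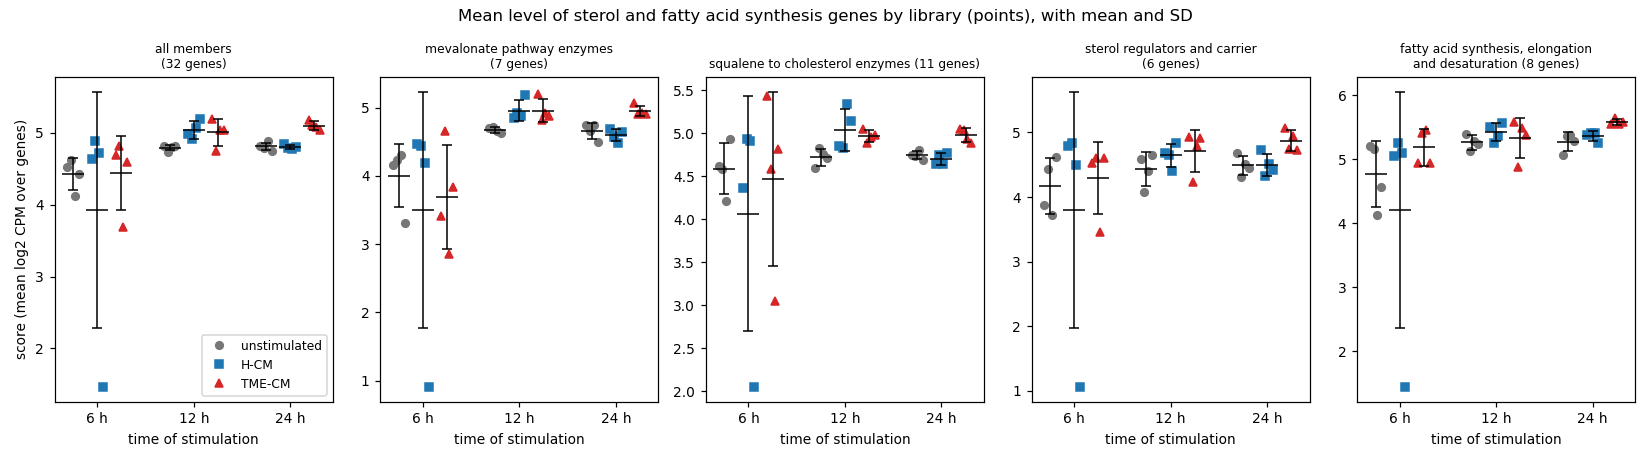
Score in each library (y axis, mean log2 CPM over the genes of a set) by time of stimulation (x axis), for all members and for the 4 roles; grey circles are unstimulated, blue squares H-CM and red triangles TME-CM libraries, with black mean and SD bars over 4 libraries. At 24 h the TME-CM libraries, at 5.04 to 5.18 for all members, lie above both other groups, and at 6 h H-CM replicate 4 lies at 1.46.

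Setting TME-CM against H-CM at 24 h asks what tumor supernatant does beyond healthy colon supernatant. Of the 32 members, 4 were called and all 4 were higher in TME-CM EGCs: the desaturases Scd2 and Fads1, the farnesyl diphosphate synthase Fdps and the sterol carrier Stard4. Over all 12713 genes tested, 5.4% were called in either direction. The fold change was above 0 for 28 of 32 members, with a median of 0.35, beside 50.6% of all genes and a median of 0.00. At an unadjusted p under 0.05 there were 14 of 32 members, all higher, and 16.0% of all genes in either direction. For 10 members all TME-CM libraries lay above all H-CM libraries, beside 5.59% of all genes tested, and for 0 members did they all lie below. Of the 4 calls, those of Fdps, Fads1 and Stard4 stand close to the threshold. The calls fell to 0 in 1 model of all 36 libraries, to 0 without H-CM replicate 2 or replicate 3 and to between 1 and 3 without any other library of the 2 groups, while the members' median stayed between 0.29 and 0.36 over all alternatives.

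Against unstimulated EGCs at 24 h, 6 members were called and all 6 were higher in TME-CM EGCs: Scd2, Fads1 and Stard4 again, with the squalene synthase Fdft1, the sterol reductase Hsd17b7 and the regulator Srebf2. Of all genes tested, 9.52% were called. The 2 comparisons share the 4 TME-CM libraries and are not independent. The fold change was above 0 for 27 of 32 members with a median of 0.31, beside 50.7% and 0.00 for all genes, and 12 members had an unadjusted p under 0.05, all higher, beside 19.2% of all genes in either direction. Again 10 members had all TME-CM libraries above all unstimulated ones, beside 6.74% of all genes tested. Leaving out single libraries gave 4 to 6 calls, and 1 model of all 36 libraries gave 0.

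The effect of healthy supernatant alone was read from the controls. For H-CM against unstimulated EGCs at 24 h, 0 of 32 members were called by edgeR and 0 by DESeq2, with 1 at an unadjusted p under 0.05 (Mvk, log2 fold change −0.52 ± 0.20, SE), while 2.03% of all genes tested were called and 10.6% had such a p. The median of the members was 0.02, with 18 above and 14 below 0.

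**Figure D2:**
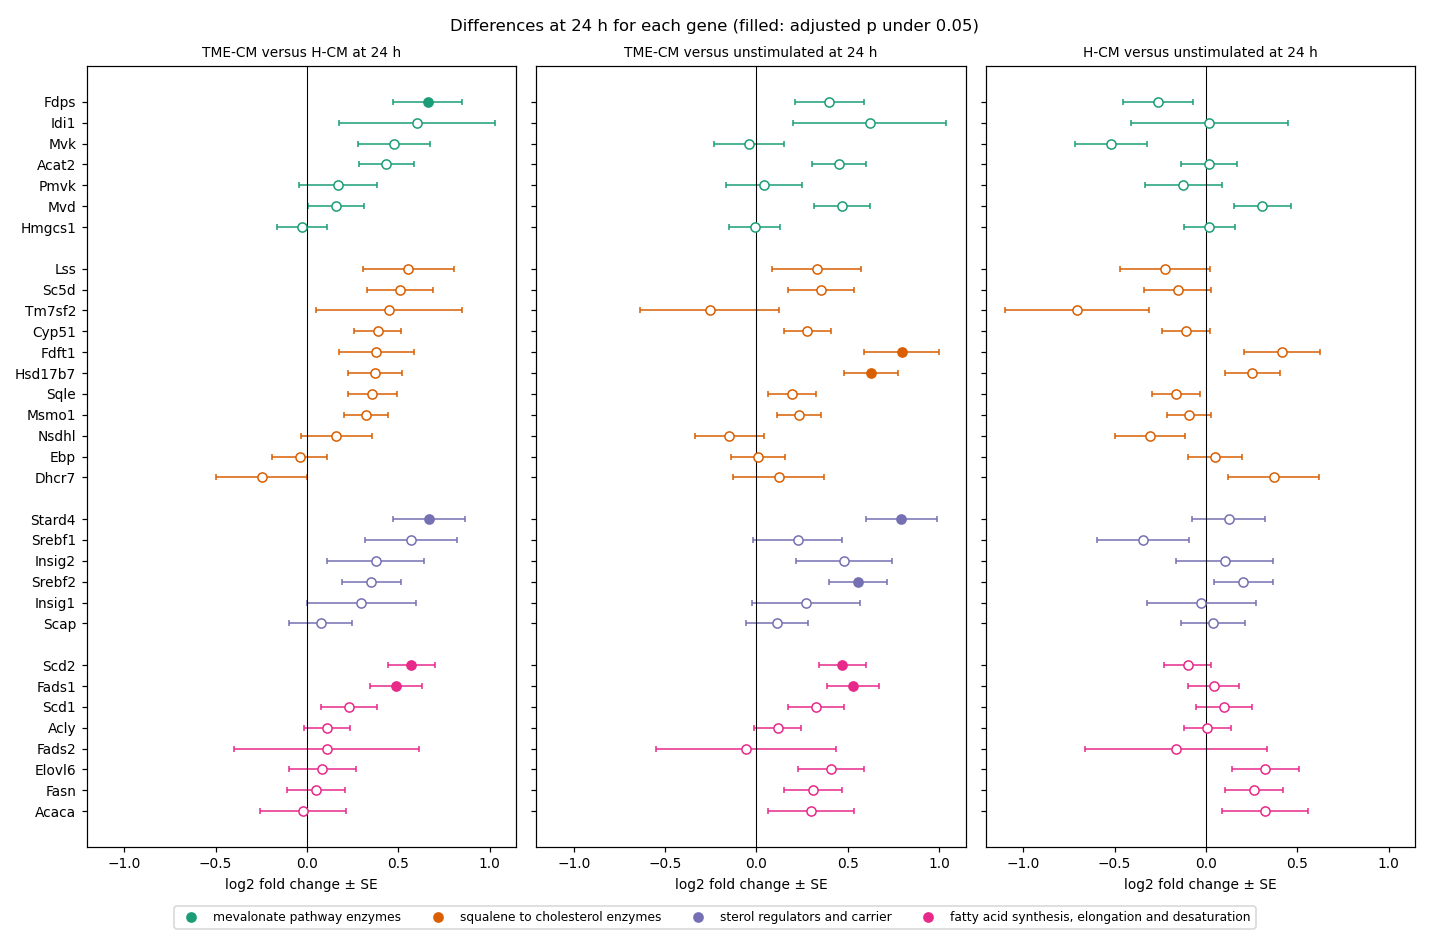
Log2 fold change (x axis, ± SE) of each of the 32 members at 24 h in the 3 comparisons, grouped and colored by role; filled circles have an adjusted p under 0.05. Most members lie to the right of 0 in both comparisons of TME-CM, with 28 and 27 of 32 above 0, and 18 of 32 do so for H-CM against unstimulated EGCs.

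Among the 7 mevalonate pathway enzymes, Fdps alone was called against H-CM and 6 of 7 fold changes were above 0. Fdps (chr3:89093588-89101967, minus strand) makes farnesyl diphosphate, the branch point to sterols and to protein prenylation. Its levels at 24 h were 34.3, 45.3, 33.2 and 38.8 CPM in the 4 TME-CM libraries, 21.7, 28.5, 19.7 and 25.7 CPM in the H-CM libraries, and 38.4, 29.6, 21.9 and 24.8 CPM in the unstimulated libraries. All TME-CM libraries were above all H-CM libraries, while unstimulated replicate 1 reached into the TME-CM range. Against H-CM the log2 fold change was 0.66 ± 0.19 (SE, edgeR adjusted p = 0.0444), and against unstimulated EGCs it was 0.40 ± 0.19 (adjusted p = 0.240). The call against H-CM was lost without any single library of the 2 groups, with adjusted p between 0.0501 and 0.201. Fdps shares 1124 exon bases with the annotated gene Gm43738 on the same strand, so part of its count may be ambiguous.

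Acat2, the thiolase that joins acetyl-CoA units at the entry of the pathway, had 52.2, 44.9, 51.3 and 43.0 CPM in TME-CM at 24 h, 35.5, 35.3, 30.6 and 41.6 CPM in H-CM, and 40.9, 31.1, 31.9 and 36.5 CPM in unstimulated EGCs. Its TME-CM libraries did not overlap with either control, but it was called in neither comparison. The log2 fold change was 0.44 ± 0.15 against H-CM (edgeR's unadjusted p = 0.00884, above the threshold once adjusted) and 0.45 ± 0.15 against unstimulated EGCs (adjusted p = 0.0623). Mvd, the decarboxylase that yields isopentenyl diphosphate, had 36.8, 34.1, 36.3 and 42.6 CPM in TME-CM, 27.5, 33.9, 34.5 and 39.6 CPM in H-CM, and 26.8, 24.3, 28.8 and 28.4 CPM in unstimulated EGCs. Here the TME-CM libraries stood above the unstimulated ones (0.47 ± 0.15, adjusted p = 0.0605) and overlapped with H-CM (0.16 ± 0.15, adjusted p = 0.709). The mevalonate kinase Mvk had a mean of 14.02 CPM in H-CM, 19.6 CPM in TME-CM and 20.03 CPM in unstimulated EGCs, with fold changes of 0.48 and −0.04 for TME-CM against H-CM and unstimulated EGCs, of which neither was called. Hmgcs1, the synthase upstream of mevalonate and the member with the sterol regulatory element motif, differed by −0.03 ± 0.14 from H-CM and by −0.01 ± 0.14 from unstimulated EGCs, at a mean of 169.9 CPM. Pmvk (0.17 ± 0.21) and the isomerase Idi1 (0.60 ± 0.42) were not called, and Idi1 had few counts, at a mean of 6.80 CPM in TME-CM EGCs.

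Of the 11 squalene to cholesterol enzymes, 0 were called against H-CM by edgeR and 2 against unstimulated EGCs, with 9 of 11 fold changes above 0 in each comparison. Hsd17b7 (chr1:169949535-169969242, minus strand) reduces the keto group left after demethylation of the sterol ring. Its 24 h levels were 45.4, 47.9, 41.7 and 52.9 CPM in TME-CM, 43.5, 34.0, 35.0 and 31.2 CPM in H-CM, and 28.1, 29.8, 33.1 and 29.8 CPM in unstimulated EGCs. All TME-CM libraries exceeded all unstimulated ones, and H-CM replicate 1 lay above the lowest TME-CM library. The log2 fold change was 0.63 ± 0.15 against unstimulated EGCs (adjusted p = 0.00594) and 0.37 ± 0.15 against H-CM (adjusted p = 0.182). The call against unstimulated EGCs held without each of the 8 libraries in turn, with adjusted p of at most 0.0285.

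Fdft1 (chr14:63145150-63181687, minus strand) joins farnesyl diphosphate units into squalene, the first step that is committed to sterols. Its TME-CM libraries at 24 h had 24.4, 28.0, 23.8 and 20.8 CPM, its H-CM libraries 18.9, 20.4, 16.7 and 17.8 CPM and its unstimulated libraries 20.1, 10.6, 11.7 and 13.7 CPM. TME-CM did not overlap with either control. Against unstimulated EGCs the log2 fold change was 0.80 ± 0.21 (adjusted p = 0.0132), and 0.0616 and 0.0601 without unstimulated replicate 2 or 3. Against H-CM it was 0.38 ± 0.21 (adjusted p = 0.391). On the opposite strand, Ctsb shares 774 exon bases with Fdft1, and whether counting used strand is not given in the sources used here.

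Cyp51, the lanosterol demethylase, had 127, 104, 99.97 and 107 CPM in TME-CM at 24 h, 78.0, 81.5, 85.8 and 89.1 CPM in H-CM, and 77.5, 90.0, 84.2 and 108 CPM in unstimulated EGCs. All TME-CM libraries were above all H-CM libraries, with a fold change of 0.39 ± 0.13 that missed the threshold (adjusted p = 0.0978). Msmo1, which oxidizes the methyl groups of the ring, and the squalene epoxidase Sqle had all TME-CM libraries above both controls, at 0.32 ± 0.12 and 0.36 ± 0.13 against H-CM (adjusted p = 0.148 for both). The lanosterol synthase Lss (0.55 ± 0.25), the sterol desaturase Sc5d (0.51 ± 0.18) and the reductase Tm7sf2 (0.45 ± 0.40) had the highest values of this role against H-CM without a call. The dehydrogenase Nsdhl (0.16 ± 0.19), the isomerase Ebp (−0.04 ± 0.15) and the last reductase of the route, Dhcr7 (−0.25 ± 0.25), were nearest to 0 or below it.

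Among the 6 sterol regulators and carriers, all 6 fold changes of TME-CM were above 0 against both controls, with 1 call against H-CM and 2 against unstimulated EGCs. Stard4 moves cholesterol between membranes in the cytosol. Its levels at 24 h were 46.3, 24.9, 45.7 and 37.1 CPM in TME-CM, 27.7, 20.9, 21.5 and 29.2 CPM in H-CM, and 18.8, 21.0, 22.4 and 27.1 CPM in unstimulated EGCs. Of the TME-CM libraries, 3 exceeded every control library and replicate 2 lay within the range of both controls. The log2 fold change was 0.67 ± 0.20 against H-CM (adjusted p = 0.0495) and 0.79 ± 0.19 against unstimulated EGCs (adjusted p = 0.00863). Against H-CM the call held without H-CM replicate 1 or TME-CM replicate 2 and was lost without any of the other 6 libraries, with adjusted p of up to 0.198. Against unstimulated EGCs it held without each of the 8 libraries, with adjusted p of at most 0.0463.

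Srebf2 (chr15:82147269-82205379, plus strand) encodes the SREBP that acts mainly on sterol genes. It had 98.5, 82.1, 87.3 and 138 CPM in TME-CM at 24 h, 95.7, 74.9, 75.4 and 71.8 CPM in H-CM, and 56.2, 76.7, 75.3 and 67.6 CPM in unstimulated EGCs. TME-CM lay above all unstimulated libraries and overlapped with H-CM through its replicate 1. The log2 fold change was 0.55 ± 0.16 against unstimulated EGCs (adjusted p = 0.0280) and 0.35 ± 0.16 against H-CM (adjusted p = 0.280). The former was lost without unstimulated replicate 1 (0.0649) or 4 (0.0736) and without TME-CM replicate 1 (0.0524) or 4 (0.168). Srebf1, whose SREBP acts mainly on fatty acid genes, had 19.9, 14.2, 19.5 and 10.6 CPM in TME-CM, 13.8, 10.2, 11.1 and 7.43 CPM in H-CM, and 17.6, 11.1, 15.1 and 11.9 CPM in unstimulated EGCs. Its groups overlapped, at 0.57 ± 0.25 against H-CM (adjusted p = 0.252) and 0.23 ± 0.24 against unstimulated EGCs (adjusted p = 0.736). The retention proteins Insig1 (0.30 ± 0.30) and Insig2 (0.38 ± 0.26) and the escort Scap (0.07 ± 0.17) were not called against H-CM.

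Of the 8 fatty acid genes, the 2 desaturases Scd2 and Fads1 were called against both controls. Scd2 (chr19:44293676-44306864, plus strand) puts the first double bond into saturated fatty acids. It had 263, 215, 227 and 279 CPM in TME-CM at 24 h, 203, 148, 148 and 162 CPM in H-CM, and 179, 178, 186 and 166 CPM in unstimulated EGCs. No TME-CM library fell into the range of a control. The log2 fold change was 0.57 ± 0.13 against H-CM (adjusted p = 0.00808) and 0.47 ± 0.13 against unstimulated EGCs (adjusted p = 0.0189). Against H-CM the adjusted p rose to 0.0507 without H-CM replicate 2 and 0.0510 without replicate 3. Against unstimulated EGCs it was 0.0640 and 0.0761 without TME-CM replicate 1 or 4 and 0.0677 without unstimulated replicate 4.

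Fads1 (chr19:10182877-10196874, plus strand) desaturates the precursors of arachidonic acid, from which prostaglandins are made. Its levels were 82.1, 116, 95.3 and 84.7 CPM in TME-CM at 24 h, 66.4, 65.3, 76.8 and 57.9 CPM in H-CM, and 55.9, 61.5, 70.9 and 71.3 CPM in unstimulated EGCs. Again all 4 TME-CM libraries were above all control libraries. The log2 fold change was 0.49 ± 0.14 against H-CM (adjusted p = 0.0459) and 0.53 ± 0.14 against unstimulated EGCs (adjusted p = 0.0163). The call against H-CM held without TME-CM replicate 1 and was lost without any of the other 7 libraries, with adjusted p of up to 0.148. The call against unstimulated EGCs was lost without unstimulated replicate 2 (0.0556) or TME-CM replicate 2 (0.0562). Fads2, the desaturase that precedes Fads1 in the same route, had 2.37 CPM in TME-CM and 2.06 CPM in H-CM EGCs, with 2 to 22 counts per library, so a difference of the size seen in Fads1 was not detectable at this depth.

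Elovl6, which lengthens palmitate, had 89.1, 64.4, 86.9 and 48.2 CPM in TME-CM at 24 h, 63.8, 59.8, 85.3 and 62.4 CPM in H-CM, and 47.6, 65.4, 58.2 and 46.1 CPM in unstimulated EGCs. The 3 groups overlapped, at 0.08 ± 0.18 against H-CM (adjusted p = 0.894) and 0.41 ± 0.18 against unstimulated EGCs (adjusted p = 0.209). The core enzymes of fatty acid synthesis were not called against H-CM: the citrate lyase Acly differed by 0.11 ± 0.13, the acetyl-CoA carboxylase Acaca by −0.02 ± 0.24 and the synthase Fasn by 0.05 ± 0.16. Scd1, the paralog of Scd2, had all TME-CM libraries above all libraries of either control, at 57.3 ± 2.93 CPM (SD, n = 4) beside 48.5 CPM in H-CM, but at 0.23 ± 0.15 it was not called (adjusted p = 0.525). Against H-CM the median fold change was 0.44 for the mevalonate enzymes, 0.37 for the squalene to cholesterol enzymes, 0.36 for the regulators and carriers and 0.11 for the fatty acid genes, and the differences between these roles were not tested.

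**Figure D3:**
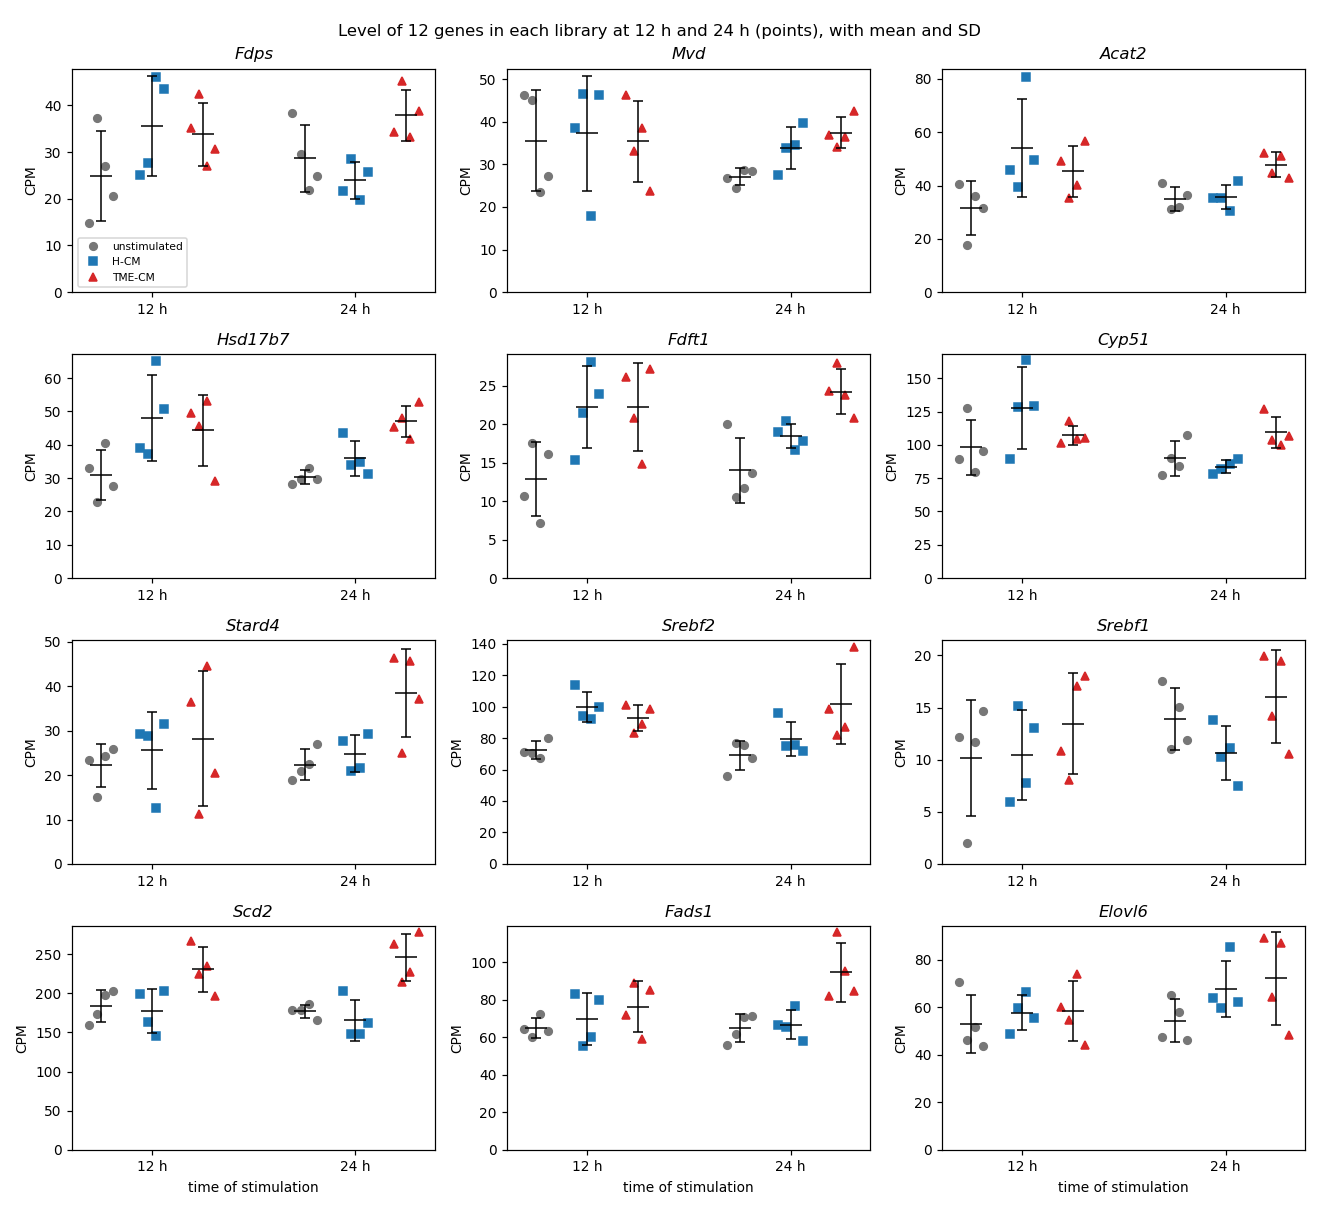
Level (y axis, CPM, starting at 0) of the 12 members with values per library at 12 h and 24 h (x axis); grey circles are unstimulated, blue squares H-CM and red triangles TME-CM libraries, with mean and SD bars over 4 libraries. At 24 h the TME-CM libraries of Scd2, Fads1, Fdft1 and Acat2 lie above every control library, while those of Srebf1 and Elovl6 overlap with them.

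Markers of other cell types moved with the same comparisons. The 6 smooth muscle markers summed to 6842 to 7859 CPM in unstimulated, 3166 to 3888 CPM in H-CM and 1644 to 2386 CPM in TME-CM EGCs at 24 h, with 4 of 6 called lower in TME-CM than in H-CM and 6 of 6 called lower in each stimulated group than in unstimulated EGCs. The 5 fibroblast markers summed to 5102 to 6823, 4399 to 4934 and 5317 to 6910 CPM in the same order, and 3 of 5 (Dcn, Lum and Pdgfra) were called higher in TME-CM than in H-CM. Against unstimulated EGCs the list was mixed, with 2 called higher and 1 lower in TME-CM among Dcn, Pdgfra and Col1a1. In H-CM, Col1a1 was called lower than in unstimulated EGCs. Of the glial, neuronal and macrophage markers, 0 of 7, 0 of 6 and 0 of 7 were called by edgeR between TME-CM and H-CM. The 3 endothelial markers summed to 34.4 to 51.9 CPM in unstimulated, 30.7 to 60.4 CPM in H-CM and 10.2 to 24.7 CPM in TME-CM EGCs, and Kdr, 1 of the 2 tested, was called lower in TME-CM than in both controls. Adipocyte markers were nearly absent, with Adipoq and Cidec at 0 counts in all 12 libraries of 24 h, while Fabp4, which cells other than adipocytes also express, was called higher in TME-CM, and the list summed to 1.48 to 5.02 CPM in unstimulated, 6.45 to 11.2 CPM in H-CM and 35.7 to 55.0 CPM in TME-CM EGCs. The epithelial and carcinoma markers summed to at most 7.29 CPM in any library of 24 h. In bulk RNA, fewer cells of a type and less RNA per cell cannot be told apart. The part of these shifts in the members' differences was not tested.

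At 12 h no member was called in any comparison by edgeR or by DESeq2. For TME-CM against H-CM, 12 of 32 fold changes were above 0 with a median of −0.07 and 1 member had an unadjusted p under 0.05 (Scd2, 0.38 ± 0.17, adjusted p = 0.405), while 1.89% of 12156 genes tested were called and 10.6% had such a p. The 12 h levels of Scd2 were 267, 224, 235 and 196 CPM in TME-CM, 199, 163, 145 and 203 CPM in H-CM, and 159, 174, 197 and 203 CPM in unstimulated EGCs. TME-CM against unstimulated EGCs had 25 of 32 above 0 with a median of 0.24 and 2 at an unadjusted p under 0.05, beside 12.3% of all genes at the same p and 4.41% called. H-CM against unstimulated EGCs had 27 of 32 above 0 with a median of 0.17 and 5 at an unadjusted p under 0.05, beside 5.66% of all genes at the same p and 0.403% called. These 5 were Dhcr7 (0.91 ± 0.34), Acat2 (0.77 ± 0.27), Fdft1 (0.77 ± 0.32), Hsd17b7 (0.62 ± 0.26) and Srebf2 (0.45 ± 0.17), with adjusted p between 0.618 and 0.772. At 12 h Srebf2 had 114, 93.9, 91.9 and 99.8 CPM in H-CM, 101, 83.2, 88.6 and 98.7 CPM in TME-CM, and 71.2, 70.5, 67.2 and 80.3 CPM in unstimulated EGCs. Both stimulated groups lay above all unstimulated libraries. For Hsd17b7 the 12 h levels were 39.0, 37.2, 65.0 and 50.8 CPM in H-CM, 49.4, 45.6, 53.1 and 29.0 CPM in TME-CM, and 33.1, 22.9, 40.5 and 27.5 CPM in unstimulated EGCs, and the groups overlapped. The common dispersion, the squared variation between replicates shared by all genes, was 0.122 at 12 h and 0.0455 at 24 h, and the median SE of the members against H-CM was 0.28 at 12 h and 0.18 at 24 h.

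Across the 6 groups of 12 h and 24 h, 13 members had their highest mean level in H-CM at 12 h and 11 in TME-CM at 24 h. Such counts were not made over all genes, and some of these ranks rest on means that differ by less than their SD. Those highest in H-CM at 12 h included Hmgcs1 at 230 ± 7.49 CPM (SD, n = 4), Msmo1 at 135.7 ± 29.2, Cyp51 at 128 ± 30.5 and Fasn at 108 ± 38.1. Those highest in TME-CM at 24 h included the called members Scd2, Fads1, Fdft1, Fdps, Srebf2 and Stard4. The remaining called member, Hsd17b7, was highest in H-CM at 12 h, at 47.99 CPM beside 46.99 CPM in TME-CM at 24 h. The calls and these means rest on the same TME-CM libraries of 24 h. The lowest mean fell in H-CM at 24 h for 12 members, in unstimulated EGCs at 12 h for 9 and in unstimulated EGCs at 24 h for 8. The range of group means was narrow, with the highest 1.20 times the lowest for Acly and 2.09 times for Dhcr7.

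Time was compared within each stimulation in a model of the 24 libraries of 12 h and 24 h. The median library total was 4090589 counts at 12 h and 5465090.5 at 24 h, and 4822804 and 4799074 within H-CM. The part of library depth in the differences between times was not tested. In H-CM EGCs, 28 of 32 fold changes of 24 h against 12 h were below 0, with a median of −0.29 beside −0.01 for all genes. By edgeR 0 were called and 7 had an unadjusted p under 0.05, all lower, with Msmo1 at −0.61 ± 0.16 and Cyp51 at −0.62 ± 0.17 having the smallest adjusted p, 0.271 and 0.281. Among all 13105 genes tested, 6.23% had such a p in either direction and 0.00763% were called. In unstimulated EGCs 0 members were called and 0 had an unadjusted p under 0.05, beside 5.30% of genes with such a p and 0.0153% called, with a median of −0.03. In TME-CM EGCs 0 members were called and 1 had an unadjusted p under 0.05, beside 7.89% with such a p and 0.626% called, with a median of 0.09. DESeq2 called 0 members in each of these comparisons. The change of the TME-CM against H-CM difference from 12 h to 24 h was above 0 for 30 of 32 members, with a median of 0.37 beside 0.02 for all genes. It was called for 0 members and 0% of genes by edgeR, and for 0 members by DESeq2, with 6 members and 436 genes, or 3.33% of all, at an unadjusted p under 0.05. The largest of these changes among the 12 members with values per library were 0.76 ± 0.35 for Fdps, 0.69 ± 0.31 for Acat2 and 0.65 ± 0.24 for Cyp51.

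**Figure D4:**
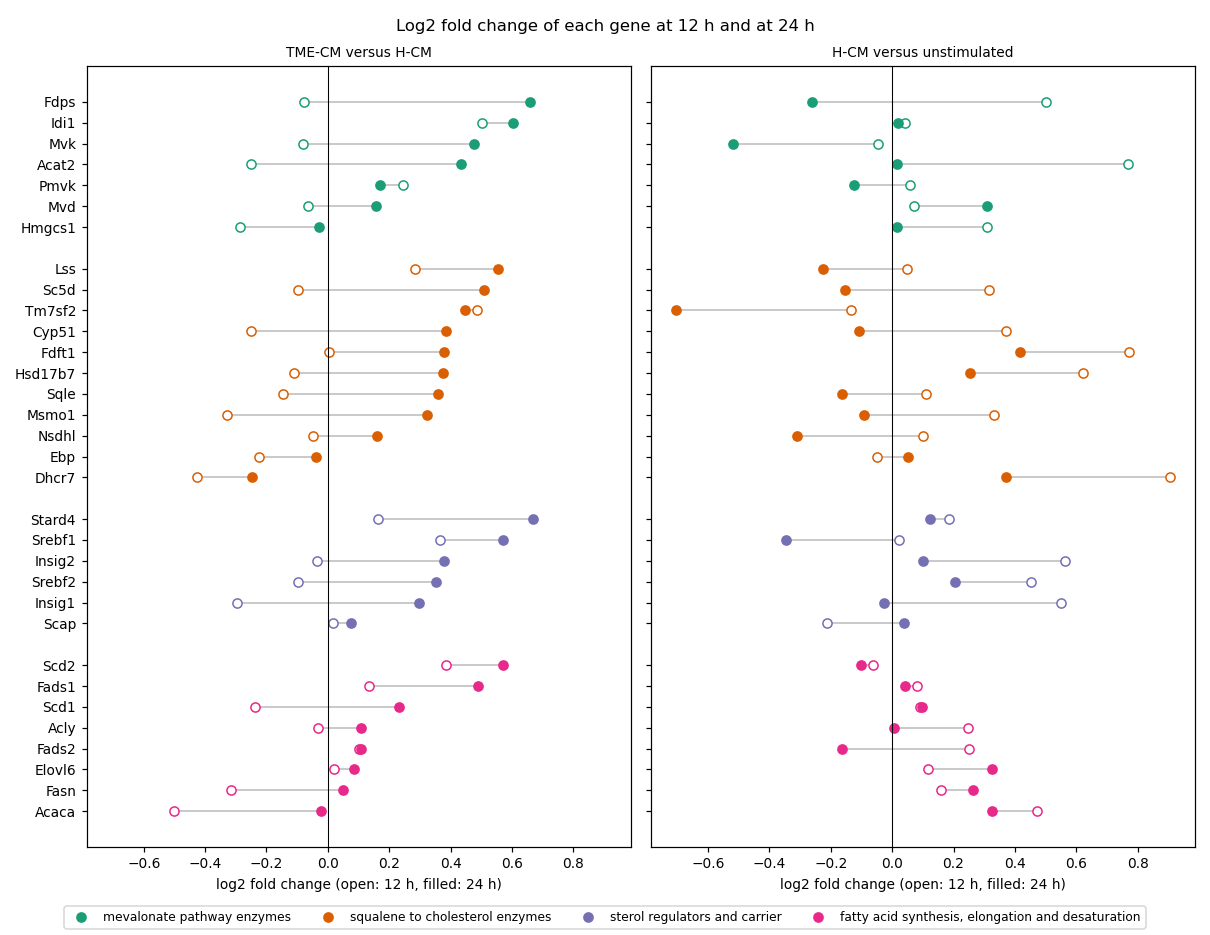
Log2 fold change (x axis) of each member at 12 h (open circles) and 24 h (filled circles), joined by a line, for TME-CM against H-CM (left) and H-CM against unstimulated EGCs (right), colored by role. On the left 30 of 32 members had a higher value at 24 h than at 12 h in the model of both times, and on the right the median of the members was 0.17 at 12 h and 0.02 at 24 h.

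At 6 h, 29 of 32 members passed the filter on low counts and 0 were called by edgeR or DESeq2 in any comparison. The common dispersion was 0.572 and the median SE of the members was 0.64 to 0.68, so a difference of the size seen at 24 h was not detectable. Of the 9256 genes tested, 0.0972% were called for TME-CM against H-CM, 0.454% for TME-CM against unstimulated EGCs and 0% for H-CM against unstimulated EGCs, in which 58 genes had an unadjusted p under 0.05. Among the members, 1, 1 and 0 had an unadjusted p under 0.05 in these comparisons, beside 6.07%, 6.19% and 0.627% of all genes. The median of all genes was itself 0.13 for TME-CM against H-CM at 6 h and the members' median was 0.13. Srebf2 had 194, 97.4, 281 and 70.2 CPM in TME-CM at 6 h, 58.4, 79.1, 77.8 and 36.8 CPM in H-CM, and 74.5, 48.6, 52.6 and 92.8 CPM in unstimulated EGCs, and the H-CM library at 36.8 CPM rests on 1 count.

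Genes next to these pathways were read from fixed lists at 24 h. Of 14 tested genes of other sterol steps, uptake and transport, 0 were called between TME-CM and H-CM by edgeR, with a median of 0.05, and 1 was higher against unstimulated EGCs, Npc2 (0.55 ± 0.13, adjusted p = 0.00830), which carries cholesterol out of lysosomes. Of 8 tested sterol efflux and LXR genes, 1 was higher in TME-CM than in H-CM, Ch25h (2.78 ± 0.63, adjusted p = 0.0195), which makes an oxysterol that restrains SREBP processing. Against unstimulated EGCs 3 of the 8 were higher, Ch25h, the sterol exporter Abcg1 (0.88 ± 0.21, adjusted p = 0.00663) and the LXR gene Nr1h2 (0.51 ± 0.16, adjusted p = 0.0429). Of 19 tested genes of other fatty acid and glycerolipid synthesis, 1 was higher in TME-CM than in H-CM, the arachidonate-preferring acyl-CoA ligase Acsl4 (0.73 ± 0.16, adjusted p = 0.00779). Acsl4 was also the only gene of this list called against unstimulated EGCs, again higher in TME-CM. Of 11 tested fatty acid oxidation genes, 2 were lower in TME-CM than in H-CM, the dehydrogenase Acadm (−0.95 ± 0.20, adjusted p = 0.00396) and the carnitine transferase Cpt1a (−0.61 ± 0.14, adjusted p = 0.0117), and 1 was higher, the lipase inhibitor Angptl4 (1.90 ± 0.46, adjusted p = 0.0163), with a median of −0.24 over the list. Between TME-CM and unstimulated EGCs, Acadm was again called lower and Angptl4 higher in TME-CM, while Cpt1a was not called. Angptl4 is a lipid-responsive gene and not an enzyme of oxidation, and it was also called higher in H-CM than in unstimulated EGCs (3.16 ± 0.64, adjusted p = 0.00970). The median of all genes in these comparisons was 0.00. Of all genes tested at 24 h, 5.4% were called for TME-CM against H-CM and 9.52% for TME-CM against unstimulated EGCs. For H-CM against unstimulated EGCs the share was 2.03%.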

How the data were processed

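QuantSeq 3′ mRNA libraries of 36 EGC samples were sequenced by the authors, whose pipeline was FastQC 0.11.7, fastq-mcf for adapters, HISAT2 on mm10, SAMtools 1.5 and HT-seq Count, without reads that mapped to several loci. The deposited values are raw read counts per gene symbol, not normalized. Annotation and strand setting are not given in the sources used here, and each count is taken as a read. Library totals ran from 13518 to 7552509 counts.

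The tools were edgeR 4.0.16 for the tests, limma 3.58.1, DESeq2 1.42.0 as an alternative, and R 4.3.3. Genes were kept by filterByExpr (minimum count 10), scaled with TMM and tested with a robust quasi-likelihood model, 1 per time point (12 libraries) and 1 for 12 h and 24 h together (24 libraries). This left 9256 genes for 6 h, 12156 for 12 h and 12713 for 24 h. The adjusted p threshold was 0.05. Log2 CPM used a prior count of 2. The calling was checked on data simulated with changes of 2 on the log2 scale. These are larger than the changes of the called members, so the check does not cover changes of their size. Groups came from the sample titles.

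The members and lists were chosen with earlier results of these data known. Values per library are given for 12 members, the 3 of each role with most calls in the 9 comparisons of stimulations within a time point, ties broken by the smallest p; other genes come from fixed lists. Alternatives were DESeq2's size factors and Wald test, no filter on low counts, only the groups compared, 1 model of all 36 libraries, a replicate block, Yam1 left out or as a covariate, for the score other prior counts, members scaled to unit SD and only members of at least 5 CPM, and each library left out. Positions and promoters are from RefSeq (GRCm38.p6, the assembly also called mm10), and exon overlaps from a GRCm38 annotation: 11 of 32 members share exon bases with another gene. No promoter window was at hand for Scd1, Scd2, Stard4, Fads1, Fdft1, Sqle and Fdps. No member with values per library held TCACNCCAC, the rule by which promoters were to be shown. Some listed genes are not reported by name.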

Additional observations from a re-analysis of the deposited data

Results flagged for a closer look

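Among 117 groups of 4 libraries examined, made of the 12 members with values per library and the score in 9 groups each, 6 held 1 library far from the other 3 by Dixon's criterion, and chance alone gives about 1 in 20. Of the 6, 3 were at 6 h. Acat2 reached 99.8 CPM in unstimulated replicate 3 of 6 h, while the other libraries of the group had 41.0 to 50.1 CPM. Fdft1 reached 52.5 CPM in TME-CM replicate 1 of 6 h, with 2.05 to 9.07 CPM in the others. The score over all members was 1.46 in H-CM replicate 4 of 6 h, the library with 13518 counts, and 4.64 to 4.89 in the others.

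Stard4 had 12.5 CPM in H-CM replicate 3 of 12 h, below the 28.9 to 31.5 CPM of the other 3. At 24 h, Srebf2 had 95.7 CPM in H-CM replicate 1 beside 71.8 to 75.4 CPM, and Elovl6 had 85.3 CPM in H-CM replicate 3 beside 59.8 to 63.8 CPM. The H-CM library of Srebf2 at 24 h is the one that overlaps with TME-CM.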

How the results depend on the processing

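Over the alternatives no fold change of a member that was called in either setting turned its direction. For TME-CM against H-CM at 24 h, 4 members were called, 6 with the Yam1 covariate, 4 with DESeq2's Wald test, 3 without the filter on low counts, 2 in a model of only the groups compared, 2 with a replicate block and 0 in 1 model of all 36 libraries, whose estimate of spread includes the libraries of 6 h. Leaving out single libraries gave 0 to 3 calls. For TME-CM against unstimulated EGCs at 24 h the 6 calls became 0 in the model of all 36 libraries and 4 to 6 without single libraries, and DESeq2's Wald test and the Yam1 covariate gave 8 each. At 6 h the model of all 36 libraries called 1 member for TME-CM against H-CM and 2 for TME-CM against unstimulated EGCs, in place of 0. Of its 13469 genes, 899 and 1113 were called in these comparisons, beside 9 and 42 in the model of 6 h alone. At 24 h the model of all 36 libraries called 71 genes for TME-CM against H-CM, in place of 686. For TME-CM against unstimulated EGCs it called 265, in place of 1210. Each other comparison kept 0 calls under the alternatives run.

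No label says whether equal replicate numbers mark paired libraries. The correlations of same-numbered libraries' deviations ran from −0.17 to 0.23, and 0 to 3 of 4 libraries correlated best with their own number. With 4 libraries per group, these values cannot decide whether libraries were paired. With the replicate block the calls of Fads1 (adjusted p = 0.0590) and Stard4 (0.0617) against H-CM and of Srebf2 against unstimulated EGCs (0.0601) were lost. Scaling each member to unit SD raised the score difference of TME-CM from H-CM at 24 h to 0.362, that from unstimulated EGCs to 0.372 and the change from 12 h to 24 h to 0.452 (0.30, 0.29 and 0.33 as reported). At 6 h, where the spread between replicates was highest (common dispersion 0.572), the median of all genes for TME-CM against H-CM lay between 0.02 and 0.27 over the settings.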
